A study of Mus musculus with 8 samples.

Results

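The genes described here are 10 transcripts by which GABAergic interneurons of the cortex and their subtypes are told apart: Gad1, Gad2, Sst, Pvalb, Vip, Npy, Reln, Calb2, Lhx6 and Dlx1. They were taken by name. For each, 1 probe set on the array named that gene alone, so all 10 of the 10 listed genes were measured, out of 19938 genes in all. Neocortical layers II-IV were cut out by laser from 8 pups aged 5 postnatal days, and the total RNA of each pup was read on its own Affymetrix array (Mouse Gene 1.0 ST). The 4 mutant pups carried floxed Bcl6 on both alleles together with 1 Cre copy at the Nex locus (Bcl6 flox/flox;Nex Cre/+). The 4 control pups carried the same floxed alleles and no Cre (Bcl6 flox/flox;Nex +/+). The Bcl6 protein is a transcriptional repressor that binds DNA through zinc fingers. Nex is a synonym of Neurod6, whose transcription factor belongs to excitatory cortical neurons, so Cre acts in those neurons and is not made in interneurons.

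Interneurons are born in the ganglionic eminences below the cortex, migrate into it and release GABA, the main inhibitory transmitter. Cells of the medial eminence depend on Lhx6 and give rise to the parvalbumin and somatostatin classes, while cells of the caudal eminence give rise to most VIP, reelin and calretinin cells. In the first postnatal week the classes are already in place, parvalbumin has not yet reached its mature level, and numbers of both excitatory and inhibitory neurons are trimmed by developmental cell death. The array reads RNA of the whole captured tissue. Fewer cells of a class and less RNA per cell therefore cannot be told apart in any value below.

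The deposited values are on a log2 scale, so that a difference of 1 is a doubling, and all differences are mutant minus control. Over all probe sets the arrays were alike, with medians between 4.94 and 5.01 and correlations between arrays of 0.9904 to 0.9939. The single Bcl6 probe set read 6.61, 6.76, 6.96 and 6.78 in mutant pups 1 to 4, against 6.55, 6.58, 6.25 and 6.23 in control pups 1 to 4. Every array labelled mutant read above every control array, with a difference of 0.37 ± 0.099 (SE, limma unadjusted p = 0.00243, adjusted p = 0.655). The exons that this probe set reads were not given in the sources used here, and it therefore checks neither the deletion nor the labels. "Mutant" means the arrays labelled so. Neurod6, the Cre locus, read 8.83 ± 0.17 in mutants and 9.22 ± 0.13 in controls (SD, n = 4 each). Xist, the RNA of the silenced X chromosome, read 9.78 and 9.76 in mutants 1 and 4, against 2.64 to 3.41 in the other 6 arrays, so both arrays high in Xist lie in the mutant group. All 9 excitatory neuron markers tested averaged above the highest of 22 genes that cortex does not use (6.95 and more, against 5.50 for Lor, a skin gene).

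The comparison asked whether interneuron transcripts differ when Bcl6 is targeted in their excitatory neighbours. None of the 10 interneuron genes differed between mutant and control pups at an adjusted p under 0.05 in limma, where 0.0652% of all 19938 genes were called. Their smallest adjusted p was 0.989. At an unadjusted p under 0.05 limma placed 2 of the 10, Reln and Calb2, and 4.91% of all genes. Both were higher in mutants, as were 1.64% of all genes at that p. Differences lay between -0.062 for Gad1 and 0.24 for Calb2, 6 above 0 and 4 below. Their median was 0.0112, against -0.0096 over all genes, of which 44.6% were above 0. Mutant and control values overlapped in all 10 genes, and failed to overlap in 2.75% of all genes.

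The 95% intervals show how large a difference these 8 arrays leave room for. The intervals are narrowest for Pvalb, Dlx1 and Lhx6, where they end at 1.11-fold, 1.11-fold and 1.12-fold in the wider direction. Pvalb averaged within the range of the genes that cortex does not use, so its narrow interval sets no limit on Pvalb RNA. They reach 1.19-fold for Gad1 and Npy, 1.21-fold for Gad2, 1.25-fold for Vip and Reln and 1.30-fold for Sst. The farthest end is that of Calb2, at 1.40-fold higher in mutants, while the widest interval is that of Sst (log2 -0.34 to 0.38). Differences beyond these sizes lie outside the intervals. Smaller ones need not lie inside, since each size is that of the end farther from 0. The intervals of Reln and Calb2 hold no value below 0.

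**Figure D1:**
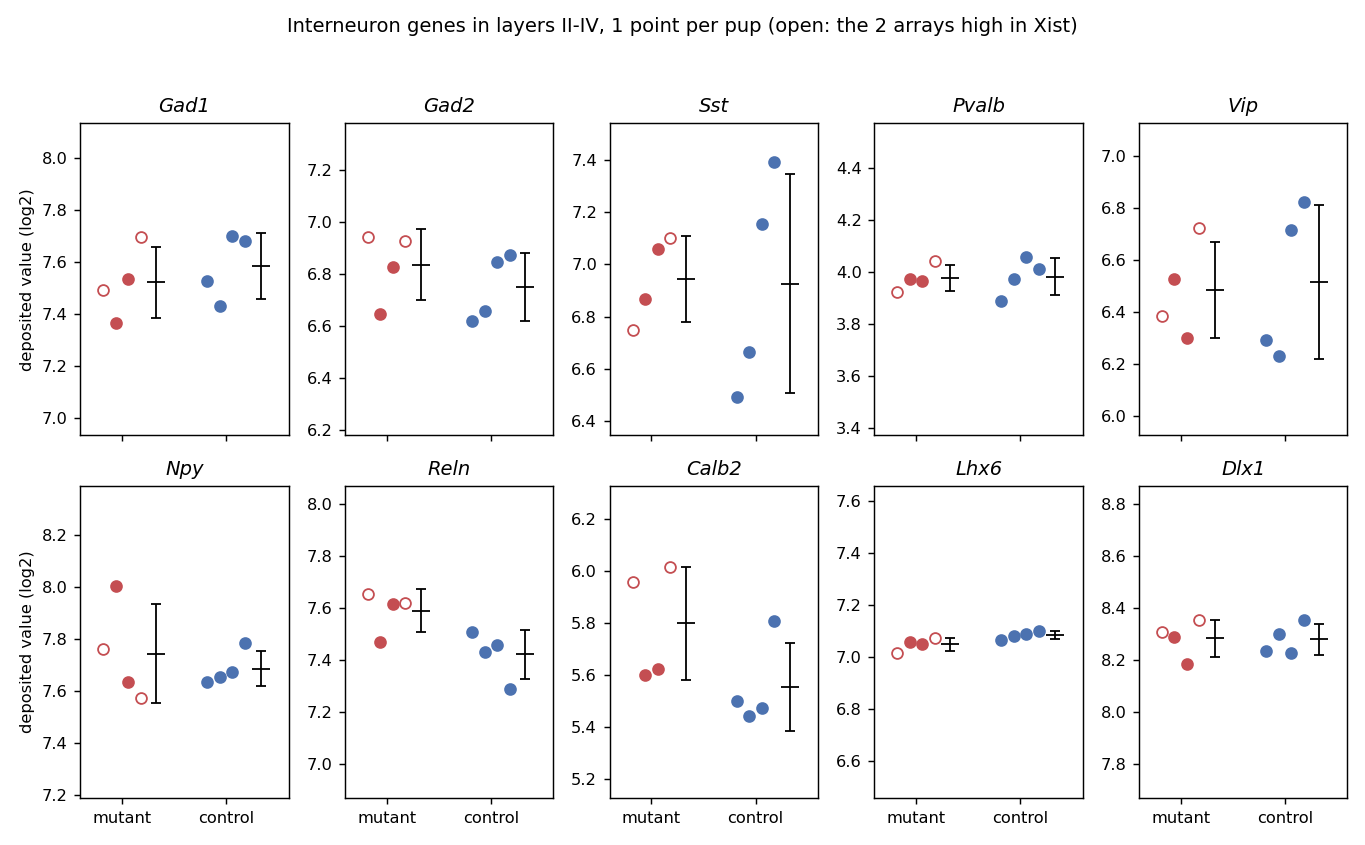
Deposited log2 values (y axis, each panel spans 1.2 units) of the 10 interneuron genes, with 1 point per pup for 4 mutant and 4 control pups, open points for mutants 1 and 4 (high in Xist) and black bars for the mean and SD. The groups overlap in all 10 panels, Sst and Vip spread most among controls, and the highest Calb2 points are the open ones.

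**Figure D2:**
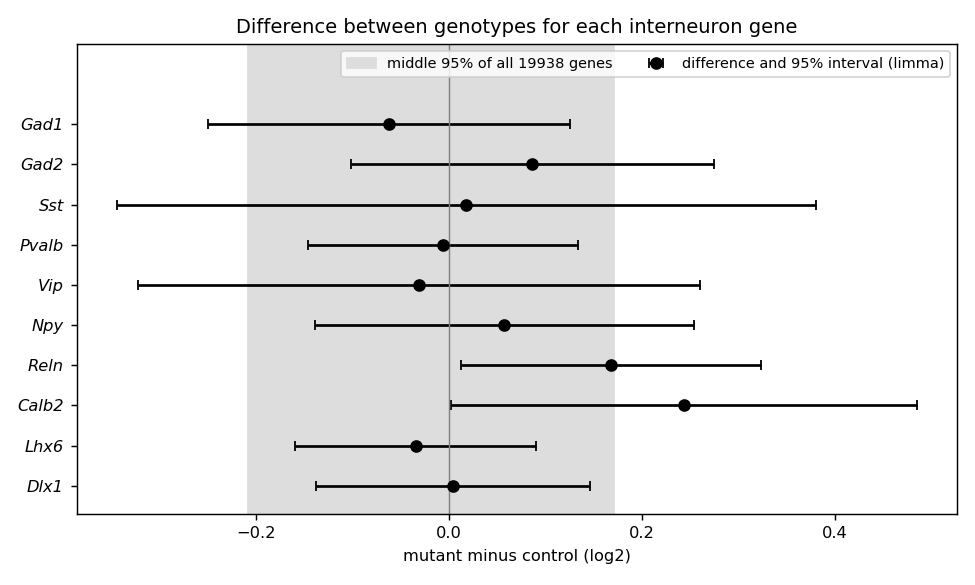
Log2 difference of mutant minus control (x axis) for each interneuron gene (y axis), with its 95% interval from limma, over a grey band that holds the middle 95% of the differences of all genes (-0.21 to 0.17). The intervals of Reln and Calb2 alone do not reach 0, and Calb2 alone has its point outside the band.

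Gad1 and Gad2 encode the enzymes GAD67 and GAD65, which make GABA from glutamate, and every interneuron class expresses them. Gad1 read 7.49, 7.37, 7.54 and 7.70 in mutants 1 to 4, against 7.53, 7.43, 7.70 and 7.68 in controls 1 to 4. Its difference was -0.062 ± 0.086 (SE), with an adjusted p of 1 in limma. Gad2 read 6.94, 6.65, 6.83 and 6.93 in mutants, against 6.62, 6.66, 6.85 and 6.87 in controls. Its difference was 0.086 ± 0.087 (SE; limma adjusted p = 1), of opposite sign to that of Gad1. Mutant 2 was the lowest mutant in both genes, and controls 1 and 2 lay below controls 3 and 4 in both.

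The other genes of GABA handling showed no call either. Of 7 genes tested out of 8 listed, 0 rose and 0 fell in limma, and 0 had an unadjusted p under 0.05. The list's median was 0.082, with 5 differences above 0 and 2 below. Aldh5a1, the last enzyme of GABA breakdown, read 7.84 ± 0.14 in mutants and 7.75 ± 0.04 in controls (SD, n = 4 each). Slc6a11, the GABA transporter GAT-3 of astrocytes, read 9.45 ± 0.09 in mutants and 9.36 ± 0.04 in controls. Slc6a13, the transporter GAT-2 of meninges, read 3.97 ± 0.08 in mutants and 4.10 ± 0.18 in controls. Slc32a1, which loads GABA into vesicles and is named here for its role and outside the rule for named genes, had a difference of 0.0032 ± 0.075 (SE).

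Dlx1 and Lhx6 encode homeodomain transcription factors, Dlx1 of GABAergic precursors of all eminences and of some mature interneurons, Lhx6 of the medial eminence lineage. Dlx1 read 8.31, 8.29, 8.18 and 8.35 in mutants 1 to 4, against 8.23, 8.30, 8.23 and 8.35 in controls. Its difference was 0.0042 ± 0.065 (SE; limma adjusted p = 1). Lhx6 read 7.02, 7.06, 7.05 and 7.07 in mutants, against 7.06, 7.08, 7.09 and 7.10 in controls. It was the steadiest of the 10 genes: its values spanned 0.083 over all 8 arrays and its SD within groups was 0.020, at or below which lay 0.0401% of all genes. Its difference was -0.034 ± 0.058 (SE), where limma's SE borrows from the spread of all genes and exceeds the gene's own, and the exact permutation p of 4 against 4 arrays was 0.0571 (two-sided, smallest possible 0.0286).

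The wider set of interneuron transcription factors held no call. Of 18 tested out of 21 listed, 0 rose and 0 fell in limma and 0 had an unadjusted p under 0.05, with 9 differences on each side of 0 and a median of 0.00060. Sox6, which acts after Lhx6 in medial eminence cells, read 6.64, 6.66, 6.68 and 6.61 in mutants, against 6.40, 6.47, 6.64 and 6.51 in controls. Its difference was 0.14 ± 0.067 (SE; limma adjusted p = 1), controls 1, 2 and 4 lay below all mutants and control 3 lay inside the mutant range. Lhx8, a LIM-homeodomain factor of the medial eminence and of cholinergic neurons, read 4.55 ± 0.09 in mutants and 4.67 ± 0.05 in controls (SD, n = 4 each). Id2, an inhibitor of basic helix-loop-helix factors made by several cortical cell types, read 9.76 ± 0.08 in mutants and 9.90 ± 0.23 in controls.

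Sst, Vip and Npy encode secreted neuropeptides. Somatostatin marks cells that mostly contact dendrites, VIP marks cells that mostly inhibit other interneurons, and neuropeptide Y is made by several classes, among them neurogliaform cells and part of the somatostatin class. The proximal promoters of Sst and Vip are shown because these 2 genes moved most among the 10 from pup to pup. The cAMP response element, TGACGTCA, the site of the factor CREB, is known from the somatostatin gene. Each window runs from 250 bases before to 50 bases after the start of transcription (RefSeq, GRCm38.p6), and capitals mark the letters TGACG on either strand.
Sst promoter, chr16:23890795-23891094, minus strand: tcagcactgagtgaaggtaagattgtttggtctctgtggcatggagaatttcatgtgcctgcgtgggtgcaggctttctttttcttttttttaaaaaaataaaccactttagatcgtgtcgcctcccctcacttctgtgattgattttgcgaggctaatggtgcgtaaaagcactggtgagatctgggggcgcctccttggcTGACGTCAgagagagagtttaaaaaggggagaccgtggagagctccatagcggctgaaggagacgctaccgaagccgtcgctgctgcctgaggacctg
Vip promoter, chr10:5638968-5639267, plus strand: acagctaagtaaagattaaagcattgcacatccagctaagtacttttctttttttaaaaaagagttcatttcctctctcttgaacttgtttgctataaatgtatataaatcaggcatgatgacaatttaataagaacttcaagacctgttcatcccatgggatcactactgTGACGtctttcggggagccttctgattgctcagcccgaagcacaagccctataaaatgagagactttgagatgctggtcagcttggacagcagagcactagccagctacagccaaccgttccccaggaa
The Sst window holds the full TGACGTCA, beginning 48 bases before the start. The Vip window holds TGACG, beginning 79 bases before the start. Searched on both strands, TGACGTCA is in 1.79% of the 32851 promoter windows of that table, and TGACG, which is part of it, in 20.8%. Of the 12 windows found for 9 of the 10 genes, 1 holds the first and 3 hold the second, those of Sst, Vip and Gad2. The letters TTCNNNGAA, a core that STAT and BCL6 sites share, are in 0 of these 12 windows and in 8.3% of all. A match is a description of letters and does not show binding.

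Sst read 6.75, 6.87, 7.06 and 7.10 in mutants 1 to 4, against 6.49, 6.66, 7.16 and 7.39 in controls 1 to 4. The controls spanned the whole range, with both the lowest and the highest of the 8 values among them, and the mutants lay between. The difference was 0.018 ± 0.17 (SE; limma adjusted p = 1). Its SD within groups, 0.32, exceeded that of nearly all genes, being at the 99.5th percentile. Vip read 6.38, 6.53, 6.30 and 6.72 in mutants, against 6.29, 6.23, 6.71 and 6.82 in controls. Here too the lowest and the highest values were controls. The difference was -0.031 ± 0.13 (SE; limma adjusted p = 1) and the SD within groups was 0.25, at the 97.4th percentile. For both genes, differences between pups of 1 genotype were larger than the difference between the genotypes.

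Npy read 7.76, 8.01, 7.64 and 7.57 in mutants, against 7.63, 7.65, 7.68 and 7.79 in controls. Mutant 2 was the highest of all 8 and mutant 4 the lowest. The difference was 0.058 ± 0.090 (SE; limma adjusted p = 1), and without mutant 2 it was -0.030. Sst and Npy lie on the chromosomes of the engineered loci. In the gene order of GRCm38.p6, 1 protein-coding gene lies between Sst and Bcl6 on chromosome 16, and 47 lie between Npy and Neurod6 on chromosome 6. Of the 45 tested genes between Npy and Neurod6, limma called 0 at an adjusted p under 0.05 and 3 at an unadjusted p under 0.05, a p that 4.91% of all genes reached. The 1 gene between Sst and Bcl6 was tested too and had an unadjusted p under 0.05 but was not called.

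Other peptides and secreted products of interneurons gave no call. Of the 15 genes tested, which include Sst, Vip, Npy and Reln, 0 rose and 0 fell in limma and 1, Reln, had an unadjusted p under 0.05. The median was -0.0084. Cck, the cholecystokinin gene, which excitatory neurons also express, read 7.91, 7.90, 7.89 and 8.04 in mutants, against 8.10, 7.76, 8.58 and 8.49 in controls. Its difference was -0.30 ± 0.15 (SE; limma adjusted p = 1), and control 2 was the lowest of the 8. Pdyn, the prodynorphin gene, read 4.36 ± 0.07 in mutants and 4.49 ± 0.13 in controls (SD, n = 4 each). Cort, which encodes cortistatin, a peptide related to somatostatin, read 5.32 ± 0.11 in mutants and 5.40 ± 0.04 in controls.

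Reln encodes reelin, a large secreted glycoprotein that guides layering in the embryo and is made after birth by interneurons and by Cajal-Retzius cells of layer I. It had the smallest p of the 10 genes. Reln read 7.65, 7.47, 7.62 and 7.62 in mutants 1 to 4, against 7.51, 7.43, 7.46 and 7.29 in controls 1 to 4. Mutants 1, 3 and 4 lay above all controls, and mutant 2 lay within the control range. The difference was 0.17 ± 0.07 (SE), or 1.12-fold, with a 95% interval of 0.012 to 0.32. Limma gave an unadjusted p of 0.0367 and an adjusted p of 0.989, and the exact permutation p was 0.0571 (two-sided). The difference therefore did not pass, and it was 0.12 without mutants 1 and 4.

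Calb2 encodes calretinin, a calcium-binding protein of caudal eminence interneurons, of part of the somatostatin class and of Cajal-Retzius cells. It read 5.96, 5.60, 5.62 and 6.02 in mutants 1 to 4, against 5.50, 5.44, 5.47 and 5.81 in controls 1 to 4. Mutants 1 and 4 were the highest of all 8, while mutants 2 and 3 lay between control 4 and the other controls. The difference was 0.24 ± 0.11 (SE), or 1.18-fold, with limma's adjusted p at 1, its unadjusted p at 0.0486 and an exact permutation p of 0.171 (two-sided). Mutants 1 and 4 are the arrays high in Xist, and no control array is. Without those 2 arrays the Calb2 difference was 0.056 ± 0.109 (SE), and with Xist minus the mean of 3 Y-linked genes as a covariate it was 0.0615 ± 0.103. Among the arrays low in Xist, control 4 read 5.81 and the other 5 read 5.44 to 5.62. Controls 2 and 3 lay below 5.50, the top of the range of the genes that cortex does not use, and control 1 lay at it.

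Pvalb encodes parvalbumin, the calcium-binding protein of fast-spiking interneurons. It read 3.92, 3.97, 3.96 and 4.04 in mutants, against 3.89, 3.97, 4.06 and 4.01 in controls. The difference was -0.0061 ± 0.064 (SE; limma adjusted p = 1). It was the only gene of the 10 whose mean fell within the range of the 22 genes that cortex does not use, which ran from 2.38 to 5.50 with a median of 3.85. Probe sets differ in their own brightness, so that range is a rough guide, but a Pvalb signal above background was not detectable with this table.

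Further markers of interneuron classes, mostly calcium-binding, channel, receptor and membrane or secreted proteins, formed a list of 24. It includes Calb2 and Pvalb, and the peptide gene Tac1, which is also among the 15 peptides and secreted products. All 24 were tested, and 0 rose and 0 fell in limma. Calb2 was higher and Cxcr4 lower at an unadjusted p under 0.05, the median was -0.029, and 17 differences were below 0 against 7 above. Cxcr4, the receptor for the chemokine Cxcl12 that keeps migrating interneurons and Cajal-Retzius cells on their routes, read 6.31, 6.34, 6.43 and 6.28 in mutants, against 6.41, 6.53, 6.54 and 6.58 in controls. Mutant 3 lay just above control 1, and the other mutants lay below all controls. Its difference was -0.18 ± 0.07 (SE; limma adjusted p = 0.952). Grik1, a kainate receptor subunit, read 5.77 ± 0.07 in mutants and 5.58 ± 0.25 in controls (SD, n = 4 each). Calb1, the calbindin gene, read 6.01 ± 0.20 in mutants and 6.21 ± 0.27 in controls.

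The receptors through which other cells respond to somatostatin, VIP, neuropeptide Y and reelin were examined beside the peptides. Of 16 tested, 0 rose and 0 fell in limma, 2 were lower at an unadjusted p under 0.05, and the median was -0.0097. Npy5r, a neuropeptide Y receptor, read 4.53, 4.60, 4.63 and 4.55 in mutants, against 4.69, 4.79, 4.87 and 4.86 in controls. It was the only receptor whose groups did not overlap, with all mutants below all controls, at a level within the range of the genes that cortex does not use. Its difference was -0.22 ± 0.07 (SE; limma adjusted p = 0.773). Sstr3, a somatostatin receptor of neuronal cilia, read 5.06, 4.72, 5.20 and 5.10 in mutants, against 5.46, 5.14, 5.60 and 5.19 in controls. Its groups overlapped, with a difference of -0.32 ± 0.12 (SE; limma adjusted p = 0.932). Sstr2, another somatostatin receptor, read 7.15 ± 0.15 in mutants and 7.32 ± 0.06 in controls (SD, n = 4 each). The reelin receptors and their adaptor, outside the rule for named genes, had differences of 0.027 (Lrp8), 0.12 (Vldlr) and -0.054 (Dab1).

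**Figure D3:**
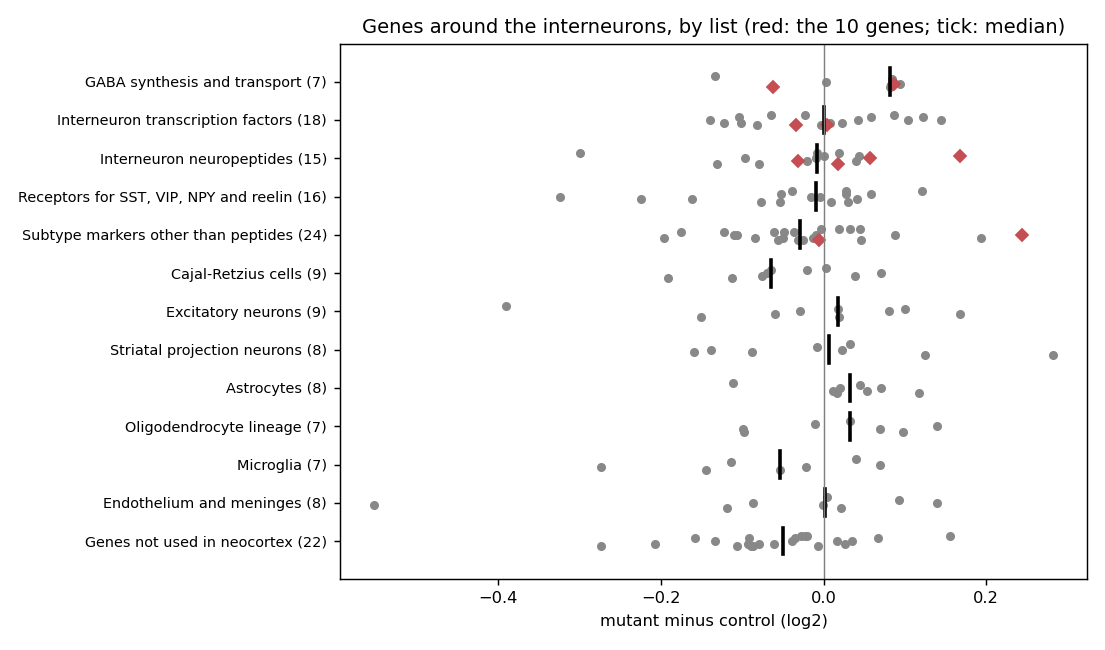
Log2 difference of mutant minus control (x axis) for every gene tested of 13 lists (y axis, number tested in parentheses), with red diamonds for the 10 interneuron genes, grey points for the others and a black tick for the list median. No point passed the threshold over all genes, list medians lie between -0.064 and 0.082, and Calb2 and Reln are the red diamonds farthest from 0.

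With the group means removed, the 10 genes were compared with each other over the 8 arrays. Of 45 pairs, 33 had a Pearson r above 0, the median r was 0.278, and 0 passed at a Benjamini-Hochberg adjusted p under 0.05 (11 at an unadjusted p under 0.05). The highest r was that of Sst and Vip, 0.831 (exact permutation p = 0.015, adjusted 0.199), with a Spearman rho of 0.881 (exact permutation p = 0.00724, adjusted 0.229) and an r of 0.72 without controls 1 and 4. Gad1 and Gad2 had an r of 0.826 (exact permutation p = 0.018, adjusted 0.199), a rho of 0.69 (exact permutation p = 0.0694, adjusted 0.312) and an r of 0.757 without mutants 2 and 4. The lowest r was that of Npy and Reln, -0.748 (exact permutation p = 0.0353, adjusted 0.199), with a rho of -0.429 (exact permutation p = 0.299, adjusted 0.585) and an r of -0.702 without mutants 2 and 4. Exact means here that all pairings of the 8 values were run. With group means removed, values are not freely exchangeable between groups, so these p-values are approximate and tend to be too small. The matching counts over all pairs of genes were not computed. Over 17068 genes the median r, sign aside, was 0.348 with Gad1 and 0.343 with Reln. The labels name no batch that any of these arrays share.

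**Figure D4:**
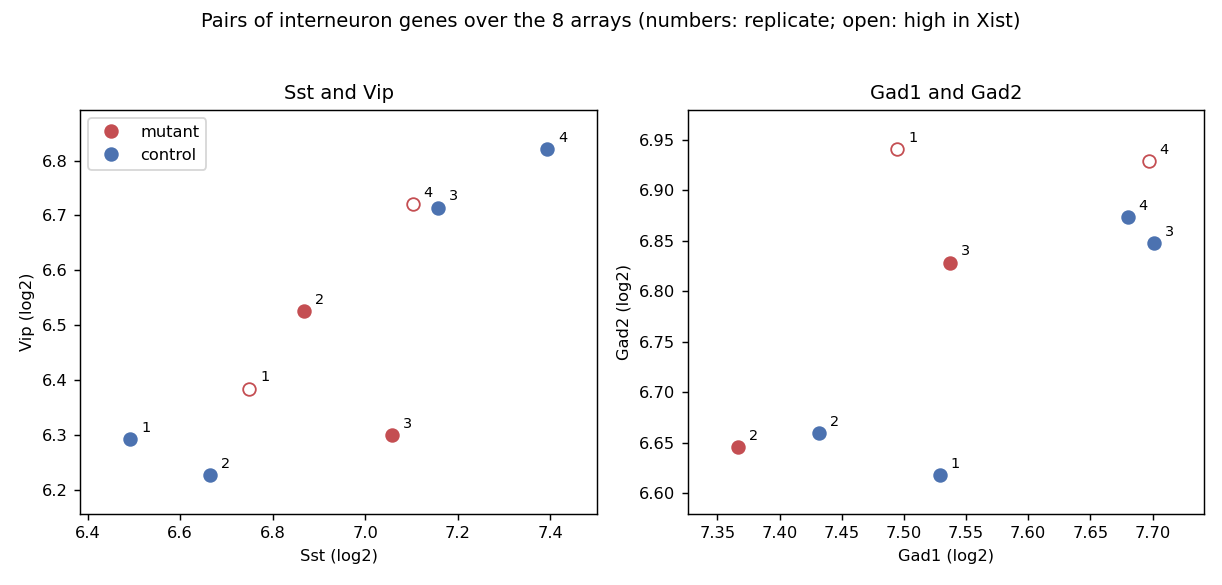
Deposited log2 values of Sst and Vip (left) and of Gad1 and Gad2 (right) on the 8 arrays, red for mutants and blue for controls, numbered by replicate, with open points for the arrays high in Xist. Controls 3 and 4 lie high and controls 1 and 2 low on both axes of the Sst and Vip plot, and mutants lie among them.

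The genes whose values followed Gad1 most closely over the 8 arrays, group means removed and 17068 genes compared, were Aqp4 (r = 0.984, rho = 0.952), Gsn (r = 0.975, rho = 0.952) and Nppc (r = 0.966, rho = 0.976). Those closest to Reln were Golga3 (r = 0.985, rho = 0.857), Calcoco1 (r = 0.982, rho = 0.976) and Ppm1e (r = 0.974, rho = 0.976). These were picked as the highest of all genes, so they carry no test. Over all genes compared, 0.457% had an r over 0.9 with Gad1 and 0.428% with Reln. Leaving out the 2 arrays farthest from the median kept r at 0.97 or above for those of Gad1 and at 0.841 or above for those of Reln.

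Markers of the other cells in and around the captured layers were set beside these values. Of 9 Cajal-Retzius genes tested, 0 were called in limma and the median was -0.064, with 6 below 0. Trp73, their p73 gene, was the 1 gene at an unadjusted p under 0.05, with a difference of -0.19 ± 0.07 (SE), opposite in sign to Reln and Calb2. Of these 9 genes, 8 read within the range of the genes that cortex does not use, all but Cacna2d2, and the list's summed level was 8.10 to 8.21 in mutants and 8.10 to 8.25 in controls. Ebf3 and Lhx1, transcription factors of those cells, had differences of -0.11 ± 0.07 and -0.076 ± 0.076 (SE). The 22 genes that cortex does not use leaned the same way, with 17 differences below 0, 5 above and a median of -0.050. Their summed level was 8.63 to 8.66 in mutants and 8.68 to 8.71 in controls, without overlap. The cause was not tested. Npy5r and most Cajal-Retzius genes read at the level of these 22 genes.

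Striatal projection neurons are GABAergic as well and lie below the cortex. Of 8 of their genes tested, 0 were called in limma and 0 had an unadjusted p under 0.05, and the summed level was 10.16 to 10.35 in mutants and 10.09 to 10.35 in controls. That sum is of linear values and weighs Foxp1 most. Foxp1, outside the rule for named genes, averaged 9.15 in mutants and 9.03 in controls, the highest of the 8. Drd1, the D1 dopamine receptor, which layer VI neurons also express, read 6.73 ± 0.31 in mutants and 6.45 ± 0.48 in controls (SD, n = 4 each). Isl1, a LIM-homeodomain factor, read 3.81 ± 0.19 in mutants and 3.97 ± 0.05 in controls. Gpr6, a receptor of D2-type striatal cells, read 6.26 ± 0.14 in mutants and 6.40 ± 0.07 in controls. In excitatory neurons, the class that expresses Cre, 0 of 9 genes were called in limma, 1 was higher (Tbr1, 0.17 ± 0.07, SE) and 1 lower (Neurod6, -0.39 ± 0.09) at an unadjusted p under 0.05. Neurod6 is the locus that carries Cre in mutants and not in controls. The summed level of the 9 genes was 12.31 to 12.46 in mutants and 12.28 to 12.47 in controls. Slc17a7, the vesicular glutamate transporter VGLUT1, had a difference of -0.15 ± 0.13 (SE).

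Glial and vascular markers gave 0 calls in limma. Summed levels overlapped between the genotypes in all 4 lists: 11.00 to 11.30 in mutants and 11.08 to 11.26 in controls for astrocytes, 9.52 to 9.76 in mutants and 9.53 to 9.71 in controls for the oligodendrocyte lineage, 7.53 to 7.66 in mutants and 7.56 to 7.83 in controls for microglia, and 8.94 to 9.19 in mutants and 9.04 to 9.16 in controls for endothelium and meninges. At an unadjusted p under 0.05 stood P2ry12, a microglial receptor (-0.27 ± 0.10, SE), and Dcn, decorin of meningeal fibroblasts (-0.55 ± 0.25). Both genes, and all 7 microglia genes tested, averaged within the range of the genes that cortex does not use, which also leaned below 0. Mutant 2, the lowest array in astrocyte, oligodendrocyte, microglia and vascular levels, was also the lowest in Gad1 and the lowest mutant in Gad2. The part of tissue makeup in the Gad1 and Gad2 values was not tested.

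**Figure D5:**
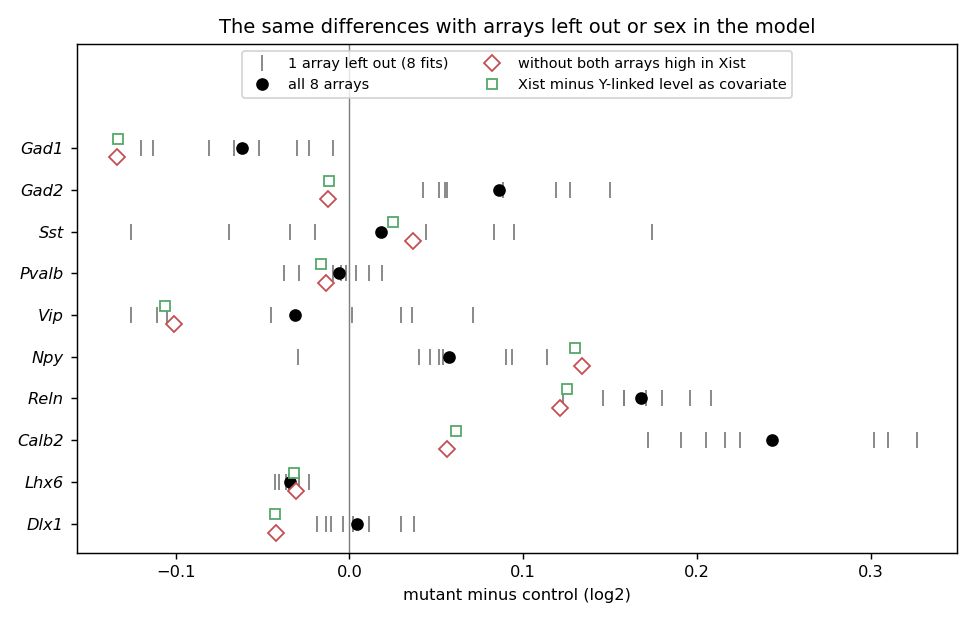
Log2 difference of mutant minus control (x axis) for each interneuron gene (y axis) over all 8 arrays (black), with 1 array left out at a time (grey ticks), without mutants 1 and 4 (red diamonds) and with Xist minus the Y-linked level as a covariate (green squares). Without mutants 1 and 4 Calb2 moves most, to 0.056, and Gad2 and Dlx1 change sign. With 1 array left out Sst spans the widest range (-0.126 to 0.174) and Lhx6 the narrowest.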

How the data were processed

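Total RNA of 8 pups was measured on Affymetrix Mouse Gene 1.0 ST arrays. The authors' deposited values, log2 for each of 35556 probe sets, were made with BRB-ArrayTools per the labels' design text. How background, normalization and probe summaries were handled was not given in the sources used here, and the table holds no detection calls, so the number of arrays limits the precision. Probe sets were named from the platform annotation, with symbols updated by Entrez identifier (GRCm38.p6). Of 21789 naming 1 gene, the one with the highest mean per gene was kept (19938 genes).

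Genotype was the single term of a limma fit (version 3.58.1, R 4.3.3, lmFit and eBayes, two-sided) over all genes, with Benjamini-Hochberg adjustment over all genes and a threshold of 0.05. The alternatives were 3 normalizations, a filter on dim genes, other priors, array weights, the replicate block, other choices of probe set, sex, and leaving out arrays. The design text describes separate pups, so the spread holds differences between animals. The code was tested on simulated data. Members, lists and alternatives were chosen with earlier results of these data known. Summed list levels are log2 of summed linear values. Named genes were the members, Bcl6, Neurod6, up to 3 further genes of smallest p per list, and the 3 genes closest to Gad1 and to Reln. Correlations used permutation tests over all pairings (Python 3.11.15), which are approximate because group means had been removed. Some listed genes were not analysed here.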

Additional observations from a re-analysis of the deposited data

Results flagged for a closer look

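Among the groups of 4 arrays of the genes that the naming rule picked, some of them not described above, 5 of 112 held a value whose gap to its nearest neighbour took up most of the group's range, and chance gives about 1 in 20. Calb2 read 5.807 in control 4, against 5.442 to 5.501 in the other controls. Cck read 8.037 in mutant 4, against 7.891 to 7.907 in the other mutants. Neurod6 read 9.415 in control 2, against 9.155 to 9.172 in the other controls. Flt1, a VEGF receptor of endothelium, read 6.132 in control 1, against 6.33 to 6.344 in the other controls. Ppm1e, a protein phosphatase, read 8.103 in mutant 2, against 8.25 to 8.273 in the other mutants.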

How the results depend on the processing

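No interneuron gene was called in limma under any alternative run, and no other listed gene under the 3 other normalizations or with 1 array left out. The smallest adjusted p of an interneuron gene was 0.747 (Calb2, with the replicate block; highest 1). Reln and Calb2 stayed above 0 in all 20 alternatives, at 0.121 to 0.208 and 0.0563 to 0.327, and each had an unadjusted p under 0.05 in 13 of them. The count of genes at an unadjusted p under 0.05 was 2 with all arrays, 0 with the sex covariate, 0 without both arrays high in Xist, and 0 to 2 with 1 array left out (0 without mutant 1, mutant 4 or control 2). With 1 array left out, the median over the 10 genes lay between -0.0241 and 0.0807 (without control 4). Differences near 0 changed sign. Pvalb was 0.00464 after quantile normalization, 0.00755 after median centring and 0.0153 after cyclic loess. Gad2 was -0.0119 with the sex covariate and -0.0126 without both arrays high in Xist, and Dlx1 -0.0426 and -0.0425. With 1 array left out, the range was -0.126 to 0.174 for Sst, -0.126 to 0.0711 for Vip, -0.0376 to 0.0187 for Pvalb, -0.0296 to 0.114 for Npy and -0.0189 to 0.0374 for Dlx1. The cause was not tested. Over all genes, correlations between mutant and control of the same replicate number were -0.0122, 0.029, 0.04 and 0.159, and 2 of 4 mutants were closest to their own number. These values cannot show whether pups of equal number shared a litter or day, which the labels do not state. With the replicate block 0 of the 10 genes were called, 2 had an unadjusted p under 0.05, and Calb2 was 0.243 ± 0.0755 (SE). The block changed the SE of Sst from 0.167 to 0.0966 and that of Lhx6 from 0.0575 to 0.0635.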

Other observations

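As for Sst and Vip, controls 3 and 4 lay above controls 1 and 2 for Cck, reading 8.58 and 8.49 in controls 3 and 4 and 8.10 and 7.76 in controls 1 and 2. Other listed genes, among them Gad1, Gad2 and Aqp4, showed the same split, and others, among them Nos1, Vldlr and Lrp8, showed the reverse. Neither split was counted over all genes. Rtp2, the 1 protein-coding gene between Sst and Bcl6, was looked up after its position was seen and read 4.81 ± 0.04 in mutants and 4.66 ± 0.10 in controls (SD, n = 4 each), a difference of 0.15 ± 0.07 (SE; limma adjusted p = 1, unadjusted 0.0471). Rtp2 and Bcl6 had differences of 0.15 and 0.37, against 0.018 for Sst. Rtp2 averaged within the range of the genes that cortex does not use, 2.38 to 5.50. Mutants and controls alike carried floxed Bcl6 on both alleles.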
